A study of Mus musculus with 10 samples.

Results

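Gluconeogenesis enzymes and their regulators were examined as 10 genes, chosen by name, in RNA-seq libraries from the livers of 10 mice, 1 library per mouse. G6pc, Pck1, Pck2, Fbp1, Pcx, Slc37a4, Ppargc1a, Creb3l3, Crtc2 and Gcgr each matched 1 Ensembl gene of the 41388 listed in the count tables. All 10 were among the 13444 genes tested, which exceeded 1 CPM (a count scaled by its library's total) in at least 1 library. WT mice were NAMPT fl/fl littermates with an intact Nampt gene. NAMPT LKO mice also carried Albumin-cre, which deletes Nampt in hepatocytes and leaves it in the other cells of the liver. Mice of both genotypes were of strain C57B/6J, about 12 weeks old, and housed on aspen bedding while food was withheld. By the labels, 3 WT mice (WT fasting) and 5 NAMPT LKO mice (NAMPT LKO fasting) were fasted for 24 h. The other 2 WT mice (WT refed) were fasted for 22 h and then fed for 2 h. Refed NAMPT LKO mice were not analysed here, so the effect of food could not be compared between genotypes.

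Gluconeogenesis makes glucose from lactate, alanine and other amino acids, and glycerol, and the liver is its main site during a fast. Pyruvate carboxylase (Pcx) and the phosphoenolpyruvate carboxykinases (Pck1 in the cytosol, Pck2 in mitochondria) carry carbon past the irreversible pyruvate kinase step of glycolysis. Fructose bisphosphatase (Fbp1) and glucose-6-phosphatase (G6pc), to which the transporter Slc37a4 delivers its substrate in the endoplasmic reticulum, bypass the other irreversible steps. Fasting glucagon acts through its receptor (Gcgr) and cyclic AMP on CREB and its coactivator Crtc2, which induce the enzymes and the coactivator Ppargc1a, whereas insulin after a meal represses them.

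WT fasting livers had higher G6pc and Pck1 than WT refed livers, by 9.28-fold and 2.65-fold, and all 10 genes had higher values in every WT fasting liver than in either WT refed liver. None of the 10 differed detectably between the fasted genotypes, where 1 of the 13444 genes, Nampt itself, passed the test. Ppargc1a was the gene among them with the largest estimated difference between genotypes, 1.54-fold higher in NAMPT LKO fasting livers, with an interval that included no difference. These counts come from whole liver, in which fewer cells of a type and less RNA per cell cannot be told apart.

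The libraries held 30603080 to 43434139 counts on genes, and values are given as CPM after TMM scaling, which sets the libraries to a common level. Nampt, the targeted gene, was at 76.6 and 66.8 CPM in the WT refed livers, at 62.2, 72.3 and 139.7 CPM in the WT fasting livers and at 11.6 to 15.1 CPM (median 12.4) in the NAMPT LKO fasting livers. The genotype labels of all 10 libraries therefore matched their Nampt level, which does not tell WT refed from WT fasting livers apart. Hepatocyte markers (Alb, Apoa1, Ttr, Serpina1a, Fgb) summed to 59226 to 104368 CPM, whereas pancreatic acinar and kidney tubule markers summed to at most 0.306 and 0.16 CPM. NAMPT LKO fasting mouse 5 stood apart: 21.1% of its counts lay on the mitochondrial genome, against 7.42% to 12.9% in the other 9 libraries, and its TMM factor was 0.854, against 0.964 to 1.05. Results that rest on it are given with and without it, except the correlations between genes and the tests of the log2 ratio of Pck1 to Pck2, which include it. Differences were tested with edgeR's quasi-likelihood method (edgeR QL) and passed at an adjusted p of 0.05 or less. Across all genes, 946 (7.04%) passed between WT fasting and WT refed livers, of which 38.1% were higher in WT fasting livers. Scaled by total counts without TMM, 979 passed and 25.7% of them were higher. The count of 946 was 107 without WT refed mouse 2 and 2231 without NAMPT LKO fasting mouse 5, the lowest and highest values when 1 library was left out.

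**Figure D1:**
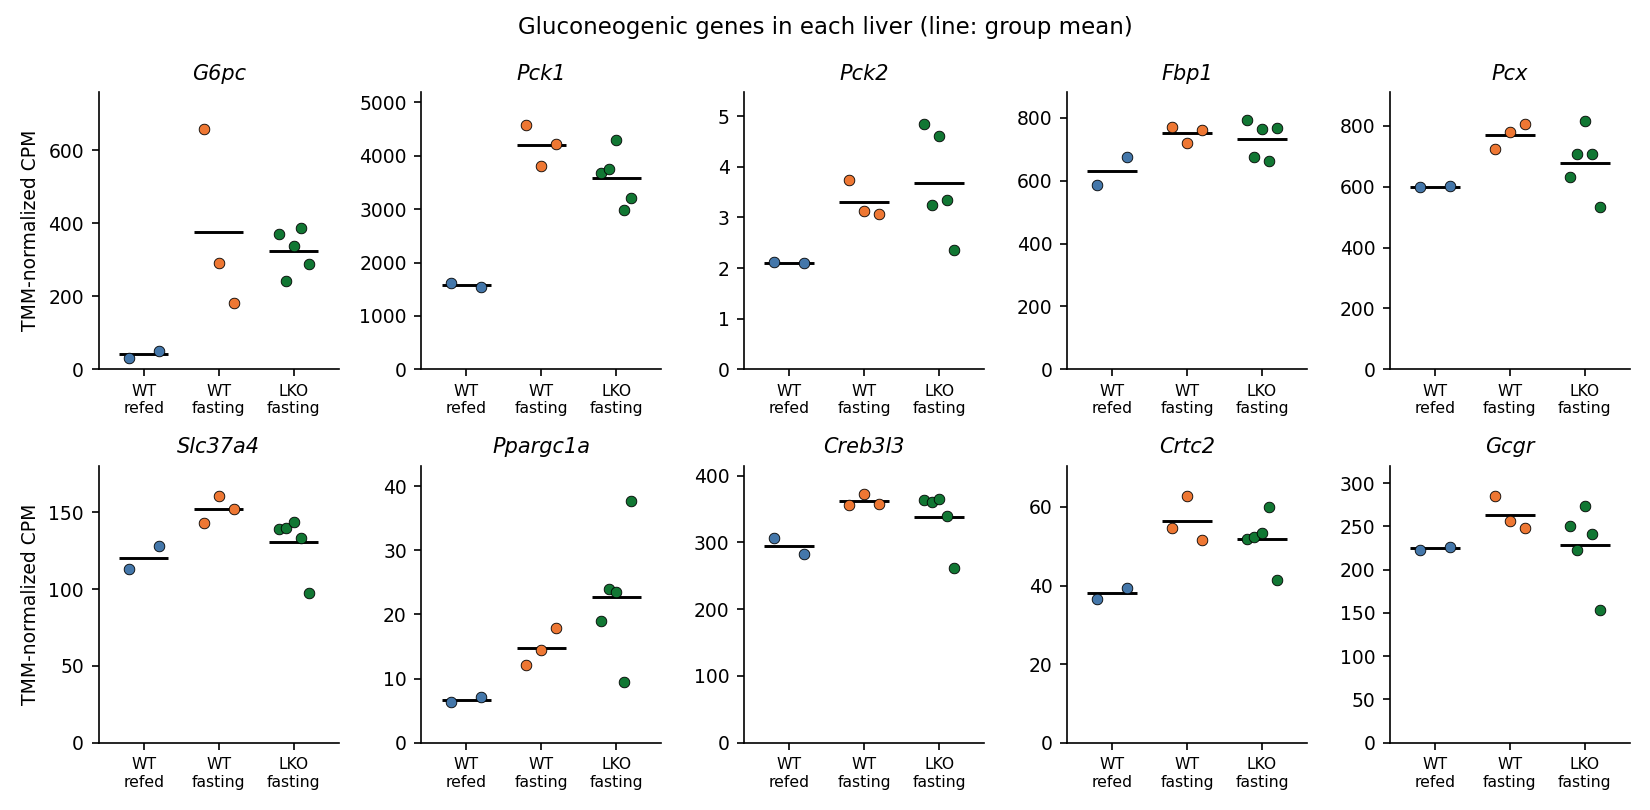
TMM-normalized CPM of the 10 genes (vertical axes, each from 0) in every liver of the 3 groups (horizontal axes; LKO stands for NAMPT LKO), with 1 point per mouse and a line at the group mean. All 3 WT fasting points lie above both WT refed points in each panel, and the NAMPT LKO fasting points overlap the WT fasting points in each panel.

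The first comparison set WT livers after a 24 h fast against WT livers after a 22 h fast and 2 h of food. Both groups had been fasted and no group was unfasted, so the effect of the fast itself could not be seen. In this comparison a rise or fall is that of WT fasting relative to WT refed livers. G6pc (ENSMUSG00000078650, chromosome 11 of GRCm38, 101367561 to 101377903, plus strand), which removes the phosphate from glucose 6-phosphate as the last step before glucose leaves the cell, was at 31.8 and 49.3 CPM in the WT refed livers. In the WT fasting livers it was at 659.6, 292 and 180.4 CPM. The lowest fasted liver was thus 4.45-fold and the highest 16.3-fold above the refed mean, and the groups did not overlap. The rise of G6pc was 3.21 on the log2 scale (standard error 0.50, 95% interval 2.12 to 4.30, edgeR QL adjusted p = 0.00444), which ranked 38 among the rises of all 13444 genes. The call rested on both refed mice: without WT refed mouse 1 or 2 the adjusted p was 0.0675 or 0.0528, with log2 fold changes of 2.92 and 3.55. The 250 bases before the G6pc start, which carry a TATA box (TATAAA, in capitals) from 29 to 24 bases upstream, are shown because G6pc had the largest change of the 10 genes. They are RefSeq sequence of GRCm38.p6, chr11:101367466-101367715, plus strand, and the RefSeq start lies 155 bases inside the Ensembl gene given above.
G6pc: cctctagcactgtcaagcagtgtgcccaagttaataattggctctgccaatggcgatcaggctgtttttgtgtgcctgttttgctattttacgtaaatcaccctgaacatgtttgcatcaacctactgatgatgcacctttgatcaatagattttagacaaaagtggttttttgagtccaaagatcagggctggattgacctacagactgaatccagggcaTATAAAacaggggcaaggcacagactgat

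Pck1 (ENSMUSG00000027513, chromosome 2, 173153048 to 173159273, plus strand) makes phosphoenolpyruvate from oxaloacetate and is the classical hormone-regulated enzyme of the pathway. It was at 1616 and 1545 CPM in the WT refed livers and at 4572, 3816 and 4220.5 CPM in the WT fasting livers. The groups were far apart, and the mice within each were close, with coefficients of variation of 3.18% in WT refed and 9.0% in WT fasting livers, against 66.4% for G6pc in WT fasting livers. The rise of Pck1 was 1.41 on the log2 scale (standard error 0.17, 95% interval 1.03 to 1.78, edgeR QL adjusted p = 0.00138). It passed under every one of the 18 alternatives run, with log2 fold changes of 1.33 to 1.47. The window before the RefSeq start of Pck1 (chr2:173152823-173153072, plus strand), which lies 25 bases inside the Ensembl gene, is shown because it holds the core of a cAMP response element, TGACG, read on the opposite strand as the capitals CGTCA from 90 to 86 bases upstream.
Pck1: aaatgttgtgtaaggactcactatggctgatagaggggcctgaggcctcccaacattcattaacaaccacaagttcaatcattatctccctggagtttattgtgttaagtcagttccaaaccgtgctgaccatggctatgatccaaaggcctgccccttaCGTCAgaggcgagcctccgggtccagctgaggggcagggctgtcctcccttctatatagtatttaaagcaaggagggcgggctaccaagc

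The mitochondrial isoenzyme Pck2 (ENSMUSG00000040618) was scarce. It was at 2.11 and 2.09 CPM in the WT refed livers, from 96 and 92 counts, and at 3.74, 3.12 and 3.08 CPM in the WT fasting livers. The groups did not overlap, but the log2 fold change of 0.65 (standard error 0.30, 95% interval -0.01 to 1.31) did not pass the test (edgeR QL adjusted p = 0.23). Pcx (ENSMUSG00000024892), which makes the oxaloacetate that both isoenzymes use, was at 599.7 and 602 CPM in the WT refed livers and at 724, 780.5 and 806 CPM in the WT fasting livers. Fbp1 (ENSMUSG00000069805) was at 588 and 676 CPM in the WT refed livers and at 770.3, 720.0 and 762 CPM in the WT fasting livers. Each fasted liver was above each refed liver for both enzymes, by small amounts: the log2 fold changes were 0.35 (95% interval -0.01 to 0.72) for Pcx and 0.24 (-0.04 to 0.53) for Fbp1, with edgeR QL adjusted p of 0.235 and 0.302. Slc37a4 (ENSMUSG00000032114), the glucose 6-phosphate translocase that serves G6pc, was at 113 and 128 CPM in the WT refed livers and at 143, 161 and 152 CPM in the WT fasting livers. Its log2 fold change was 0.33 (95% interval -0.03 to 0.69, edgeR QL adjusted p = 0.262), against 3.21 for its partner G6pc.

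Of the regulators, Ppargc1a (ENSMUSG00000029167, chromosome 5, 51454249 to 51567725, minus strand), the coactivator PGC-1alpha that works with FOXO1 and HNF4A on G6pc and Pck1, was at 6.36 and 7.09 CPM in the WT refed livers. In the WT fasting livers it was at 12.2, 14.4 and 17.8 CPM. The groups did not overlap, and the estimate was of similar size to that of Pck1 but less precise, with a log2 fold change of 1.13 (standard error 0.43, 95% interval 0.18 to 2.08, edgeR QL adjusted p = 0.149). It passed under 4 of the 18 alternatives, which were DESeq2, limma's voomWithQualityWeights, the fit of these 5 libraries alone and the fit without NAMPT LKO fasting mouse 4. Its promoter window (chr5:51567726-51567975, minus strand) is printed because it had the largest estimated difference between genotypes and, like Pck1, it holds the cAMP response element core on the opposite strand (CGTCA, in capitals), from 49 to 45 bases upstream.
Ppargc1a: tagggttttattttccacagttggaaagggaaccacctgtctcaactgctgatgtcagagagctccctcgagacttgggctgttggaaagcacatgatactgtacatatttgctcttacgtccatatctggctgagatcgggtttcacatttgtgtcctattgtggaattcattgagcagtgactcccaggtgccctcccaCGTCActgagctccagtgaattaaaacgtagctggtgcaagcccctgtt

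Crtc2 (ENSMUSG00000027936), the CREB coactivator that enters the nucleus on glucagon signalling, was at 36.6 and 39.5 CPM in the WT refed livers and at 54.6, 62.8 and 51.7 CPM in the WT fasting livers. Its log2 fold change of 0.56 (standard error 0.16, 95% interval 0.22 to 0.90) lay just outside the threshold (edgeR QL adjusted p = 0.0541) and passed under 5 of the 18 alternatives. Creb3l3 (ENSMUSG00000035041), a liver transcription factor held in the endoplasmic reticulum membrane until it is cleaved, was at 307 and 283 CPM in the WT refed livers and at 356, 372 and 357 CPM in the WT fasting livers. Its log2 fold change was 0.29 (95% interval -0.05 to 0.62, edgeR QL adjusted p = 0.291). Gcgr (ENSMUSG00000025127), the glucagon receptor, was at 222 and 226 CPM in the WT refed livers and at 285, 256 and 248 CPM in the WT fasting livers. With a log2 fold change of 0.22 (95% interval -0.23 to 0.67, edgeR QL adjusted p = 0.565) it was the member with the smallest estimate.

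In all, 2 of the 10 genes passed the test as higher in WT fasting livers and 0 as lower, against 2.68% of all 13444 genes that passed as higher. Before adjustment, 4 of the 10 had p under 0.05, against 22.3% of all genes. WT fasting and WT refed livers did not overlap for 10 of 10 genes, each higher in WT fasting livers, whereas 25% of all genes had such a pattern. The median log2 fold change of the 10 was 0.46, against 0.037 over all genes, and was 0.34 without G6pc and Pck1. The number that passed depended on the tool: with limma's voomWithQualityWeights 8 of the 10 passed, all but Fbp1 and Gcgr, against 10.9% of all genes as higher, and with DESeq2 4 passed. Without NAMPT LKO fasting mouse 5, which enters this comparison through the shared estimate of the spread, 5 passed, with Slc37a4 (edgeR QL adjusted p = 0.0322), Creb3l3 (0.043) and Crtc2 (0.00676) added to G6pc and Pck1.

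**Figure D2:**
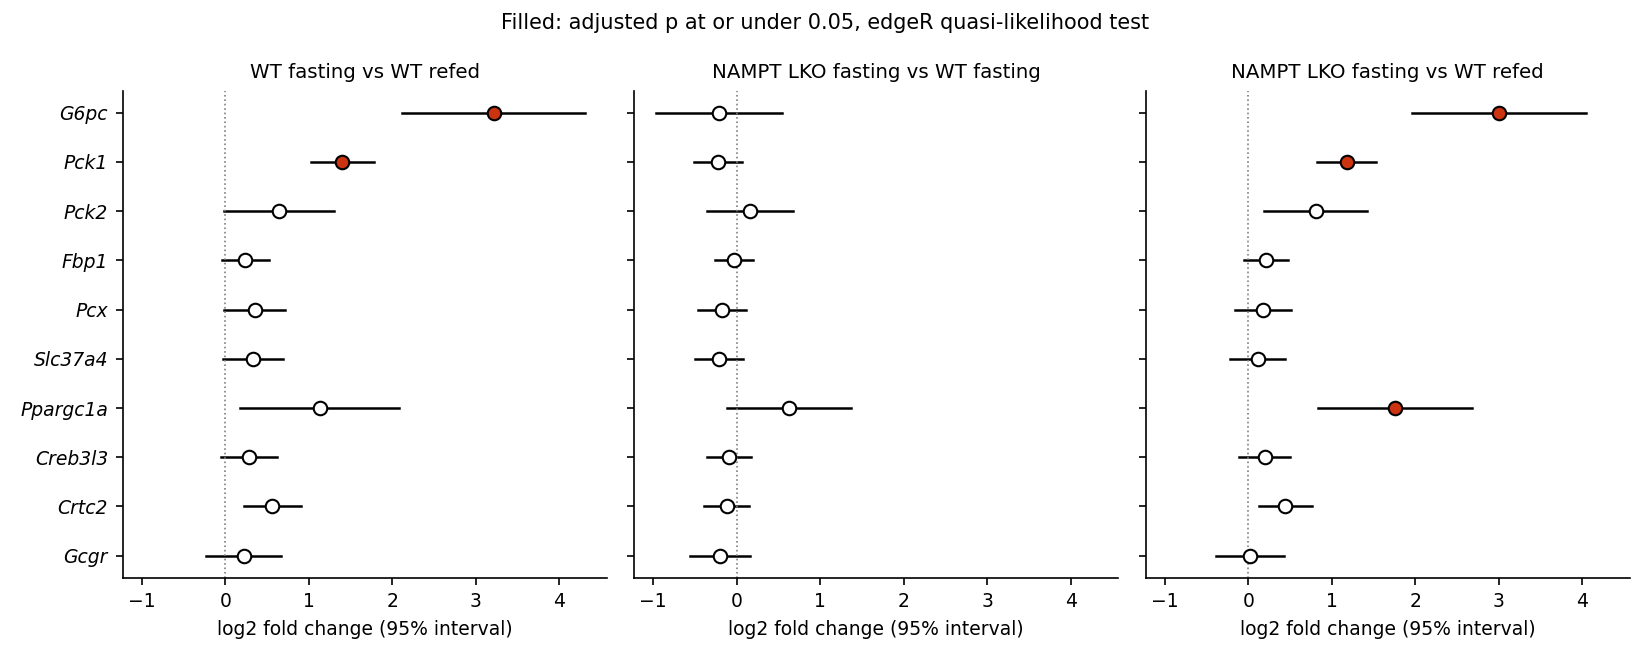
Log2 fold change of each gene (points) with its 95% interval (lines) in the 3 comparisons (panels), from edgeR QL, with filled points for an adjusted p at or under 0.05. G6pc and Pck1 are filled in both comparisons with WT refed livers, Ppargc1a only in the right panel, and the intervals of all 10 genes span 0 in the middle panel.

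Levels were compared between genes per exonic length, as RPKM. In WT refed livers Pck1 was highest, at 483 ± 18.1 RPKM (SD, n = 2), followed by Fbp1 (389 ± 36.4), Pcx (147 ± 0.477), Creb3l3 (102 ± 6.38), Gcgr (89.7 ± 0.608), Slc37a4 (60.5 ± 4.96), G6pc (17.6 ± 5.28), Crtc2 (9.72 ± 0.472), Ppargc1a (1.06 ± 0.0758) and Pck2 (0.647 ± 0.00825). No neighbours in that order overlapped in WT refed livers. G6pc was the gene that changed place: it was in position 7 in WT refed livers and in position 4 in both fasted groups, at 157 ± 106 RPKM (SD, n = 3) in WT fasting and 133 ± 29.1 RPKM (SD, n = 5) in NAMPT LKO fasting livers. These positions are by group mean. In the fasted groups the range of G6pc overlapped those of Pcx above it and of Creb3l3 and Gcgr below it. In WT fasting mouse 3, G6pc was at 76.6 RPKM, below Creb3l3 (121.4 RPKM) and Gcgr (97.0 RPKM). G6pc exceeded Creb3l3 in 1 of 3 WT fasting livers (medians 116.7 and 119.9 RPKM) and in 4 of 5 NAMPT LKO fasting livers. The other 9 genes kept their relative order in the 3 groups, although in NAMPT LKO fasting livers the ranges of Creb3l3, Gcgr and Slc37a4, and those of Ppargc1a and Pck2, also overlapped. The RPKM ratio of G6pc to its translocase Slc37a4 was 0.243 and 0.333 in the WT refed livers, 3.98, 1.57 and 1.02 in the WT fasting livers, and 1.49 to 2.57 (median 2.30) in the NAMPT LKO fasting livers. G6pc was thus the scarcer of the pair in the refed livers and the more abundant, per length, in every fasted liver.

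**Figure D3:**
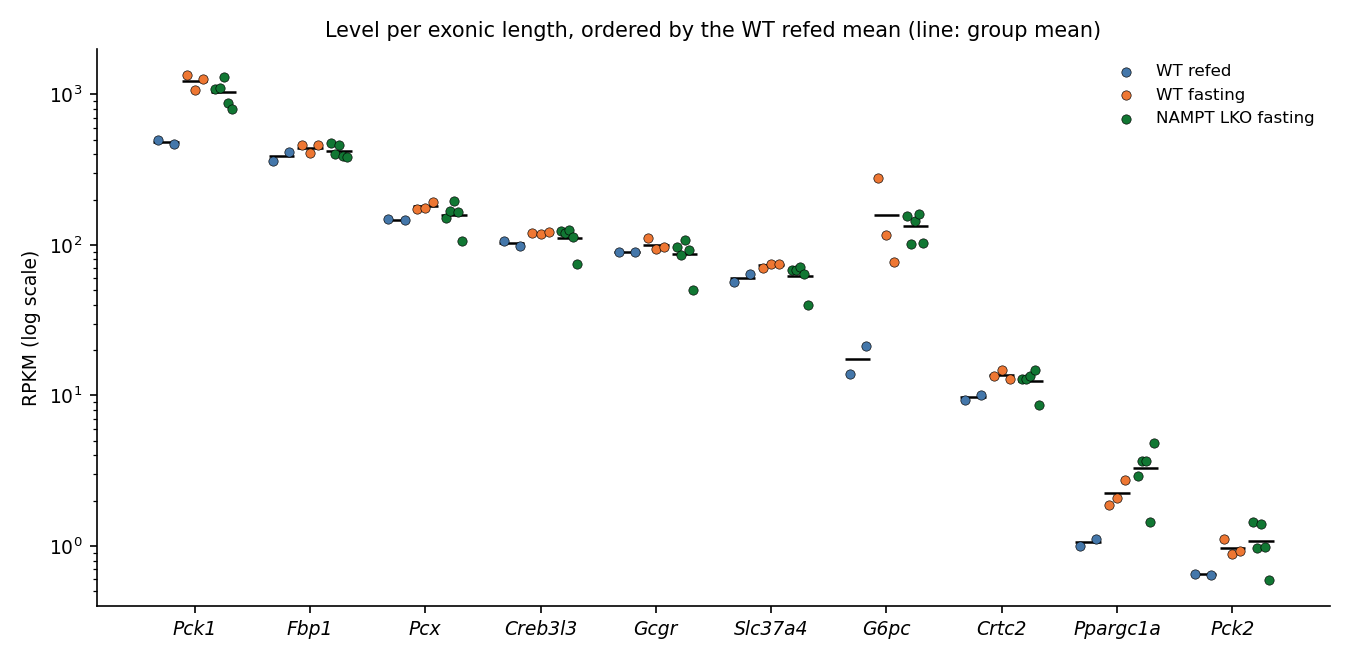
RPKM (vertical log axis) of the 10 genes in each liver, ordered by the WT refed mean, with 1 point per mouse and a line at the group mean for WT refed, WT fasting and NAMPT LKO fasting livers. G6pc moves from 13.8 to 21.3 RPKM in WT refed livers to 76.6 to 278 RPKM in WT fasting livers, while the order of the other genes stays.

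The balance of the cytosolic and mitochondrial carboxykinases was set out as the log2 ratio of Pck1 to Pck2 RPKM. It was 9.54 ± 0.036 in WT refed livers (SD, n = 2), 10.30 ± 0.095 in WT fasting livers (SD, n = 3) and 9.95 ± 0.33 in NAMPT LKO fasting livers (SD, n = 5). Pck1 therefore exceeded Pck2 by 732-fold to 1361-fold per length over all livers. The WT fasting livers lay above both WT refed livers (difference 0.76, p = 0.1 in a two-sided exact permutation test, the lowest value open to 3 mice against 2). The NAMPT LKO fasting livers ranged more widely, and the difference from WT fasting livers was -0.35 (exact permutation test, two-sided p = 0.161, where the smallest possible is 0.0179) and from WT refed livers 0.41 (exact permutation test, two-sided p = 0.19). Adjusted over the 3 comparisons by the Benjamini-Hochberg method, each p of these exact permutation tests was 0.19. These tests include NAMPT LKO fasting mouse 5, whose log2 ratio of 10.40 was the highest of its group and inside the WT fasting range of 10.24 to 10.41. The other NAMPT LKO fasting livers, at 9.55 to 10.16, all lay below the lowest WT fasting liver.

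The second comparison asked whether loss of hepatocyte NAMPT changes these genes in the fasted liver. G6pc was at 242 to 386 CPM (median 337) in the NAMPT LKO fasting livers, inside the 180.4 to 659.6 CPM of the WT fasting livers. Its log2 fold change was -0.21 (standard error 0.34, 95% interval -0.97 to 0.54, edgeR QL adjusted p = 0.913). The direction rested on WT fasting mouse 1, the liver at 659.6 CPM, without which the log2 fold change was 0.46 (edgeR QL adjusted p = 0.723). Pck1 was at 2979 to 4304 CPM (median 3671), and 4 of the 5 NAMPT LKO fasting livers were below the lowest WT fasting liver (3816 CPM). The log2 fold change of Pck1 was -0.23 (standard error 0.13, 95% interval -0.51 to 0.06, edgeR QL adjusted p = 0.837).

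Ppargc1a was at 19.0, 24.0, 23.5, 9.49 and 37.7 CPM in NAMPT LKO fasting mice 1 to 5. Of these, 4 were above the highest WT fasting liver (17.8 CPM) and mouse 4 was below the lowest (12.2 CPM), so that the groups overlapped. The log2 fold change was 0.62 (standard error 0.34, 95% interval -0.12 to 1.36, edgeR QL adjusted p = 0.837). It was 0.36 without NAMPT LKO fasting mouse 5, the highest liver and the one rich in mitochondrial counts, and 0.82 without mouse 4. The group's coefficient of variation was 44.9%, against 19.2% in WT fasting and 7.71% in WT refed livers.

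The other members moved less. Pck2 was at 2.35 to 4.84 CPM (median 3.34) in NAMPT LKO fasting livers, with a log2 fold change of 0.16 (95% interval -0.36 to 0.67), which was 0.28 without NAMPT LKO fasting mouse 5, 0.25 without WT fasting mouse 1, and 0.041, 0.06 and 0.10 without NAMPT LKO fasting mouse 1, NAMPT LKO fasting mouse 3 and WT fasting mouse 3. Fbp1, at 662 to 792 CPM (median 766), had the tightest estimate next to zero, -0.03 (95% interval -0.26 to 0.20). The log2 fold changes of Pcx (-0.18, 95% interval -0.46 to 0.11), Slc37a4 (-0.21, -0.50 to 0.07), Creb3l3 (-0.09, -0.36 to 0.17), Crtc2 (-0.12, -0.39 to 0.15) and Gcgr (-0.20, -0.55 to 0.15) were all below 0. In each of these 5 genes NAMPT LKO fasting mouse 5 was the lowest liver of the 10 or of its group: it was at 534 CPM for Pcx, 97.2 for Slc37a4, 262 for Creb3l3, 41.3 for Crtc2 and 153 for Gcgr. Without it the estimates shrank to -0.10 for Pcx, -0.13 for Slc37a4, -0.02 for Creb3l3, -0.05 for Crtc2 and -0.09 for Gcgr. The summed cholangiocyte markers (Krt19, Krt7, Epcam, Sox9, Spp1) were also higher in every NAMPT LKO fasting liver (33.5 to 53.5 CPM) than in the WT livers (15.0 to 22.0 CPM), with the highest sum in mouse 5, and their part in these values was not tested.

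Of the 10 genes, 0 passed the test between the fasted genotypes by edgeR QL, 0 had p under 0.05 before adjustment, and 0 passed with DESeq2, edgeR's exact test or limma's voomWithQualityWeights. Over all 13444 genes, 0.00744% passed, 6.03% had p under 0.05 before adjustment and 4.07% did not overlap between the groups, which held for 0 of the 10. The median log2 fold change was -0.15, with 2 higher and 8 lower, against 0.00025 over all genes, and was -0.07 without NAMPT LKO fasting mouse 5, again with 2 higher and 8 lower.

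The third comparison, NAMPT LKO fasting against WT refed livers, varied genotype and feeding together and used the same 2 refed mice as the first. On the log2 scale G6pc was higher by 3.00 (standard error 0.47, edgeR QL adjusted p = 0.00323), Ppargc1a by 1.76 (0.42 and 0.0236) and Pck1 by 1.18 (0.16 and 0.00158). All 5 NAMPT LKO fasting livers lay above both WT refed livers for these 3 genes and for Pck2 and Crtc2. Pck2 (log2 fold change 0.80, edgeR QL adjusted p = 0.0926) and Crtc2 (0.44, 0.0717) did not pass, and the other 5 genes had log2 fold changes of 0.02 to 0.21. Thus 3 of the 10 passed as higher, against 4.65% of all genes as higher and 11.2% in either direction. Before adjustment, 5 of the 10 had p under 0.05 against 26.1% of all genes, and 5 did not overlap and were higher, against 15.8% of all genes. Ppargc1a passed here and not between WT fasting and WT refed livers, but the direct comparison of the fasted genotypes did not pass (above). Its call was lost without WT refed mouse 1 (edgeR QL adjusted p = 0.185) or 2 (0.184), and that of G6pc without WT refed mouse 1 (0.062). Without NAMPT LKO fasting mouse 5, 6 genes passed, with Pck2 (edgeR QL adjusted p = 0.017), Creb3l3 (0.0377) and Crtc2 (0.00687) added.

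The wider pathway was described with 133 other genes in 5 lists, of which 124 were tested. Between WT fasting and WT refed livers 9 of the 124 (7.26%) passed as higher and 4 (3.23%) as lower, against 2.68% and 4.36% of all genes. The 22 tested genes of the shared steps, most of which serve glycolysis as well (aldolases, Gapdh, Eno1, malate dehydrogenases, the aspartate shuttle), had 0 that passed by edgeR QL, 1 with p under 0.05 before adjustment, and a median log2 fold change of 0.011. The genes that feed the pathway had a median of 0.34, with 19 of 22 above 0 and 3 passed as higher. These were Pdk4, which blocks pyruvate oxidation by inhibiting pyruvate dehydrogenase (means 2.74 to 22.0 CPM, log2 fold change 3.00, edgeR QL adjusted p = 0.00715), and the alanine-carrying transporters Slc38a2 (means 57.0 to 146 CPM, 1.35, adjusted p = 0.000984) and Slc38a4 (means 639.7 to 1029.6 CPM, 0.68, adjusted p = 0.0105). Pdk4 spread over 9.81 to 40.3 CPM in WT fasting livers.

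In the glucagon, cAMP and CREB list, 2 of 35 passed as higher, and the list's median was 0.13. Adcy6, an adenylyl cyclase, went from a mean of 15.8 to 34.9 CPM (log2 fold change 1.13, edgeR QL adjusted p = 0.00452), and Sik3, a salt-inducible kinase of the family that holds CRTC2 in the cytoplasm, from 50.8 to 77.4 CPM (0.60, adjusted p = 0.0227). Among 33 transcription factors and coactivators, 4 passed as higher, 3 passed as lower and the median was -0.051. Cebpb, a factor that binds the Pck1 promoter, rose (log2 fold change 1.48, edgeR QL adjusted p = 0.0168), as did the acetyltransferase Kat2b (0.64, adjusted p = 0.014) and the AKT inhibitor Trib3 (1.11, adjusted p = 0.0273). Sirt1, the deacetylase, was the remaining gene that passed as higher (0.63, edgeR QL adjusted p = 0.0335) and is named after its value was seen. The Sirt1 call was lost with library size alone and without the filter. It was also lost when any 1 of the WT mice, fasting or refed, or NAMPT LKO fasting mouse 2 or 3, was left out. Onecut1, a liver homeobox factor, fell from 66.0 and 139.7 CPM in WT refed livers to 6.44 to 9.25 CPM in WT fasting livers (log2 fold change -3.80, edgeR QL adjusted p = 0.000307), the largest change in any of the 5 lists. Foxa2 (-1.09, edgeR QL adjusted p = 0.035) and Trib1 (-0.94, 0.0213) also fell. Leaving out WT refed mouse 1 or 2 left 3 or 2 of the 13 calls in the lists. Leaving out WT fasting mouse 2 left 7 of the 13.

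**Figure D4:**
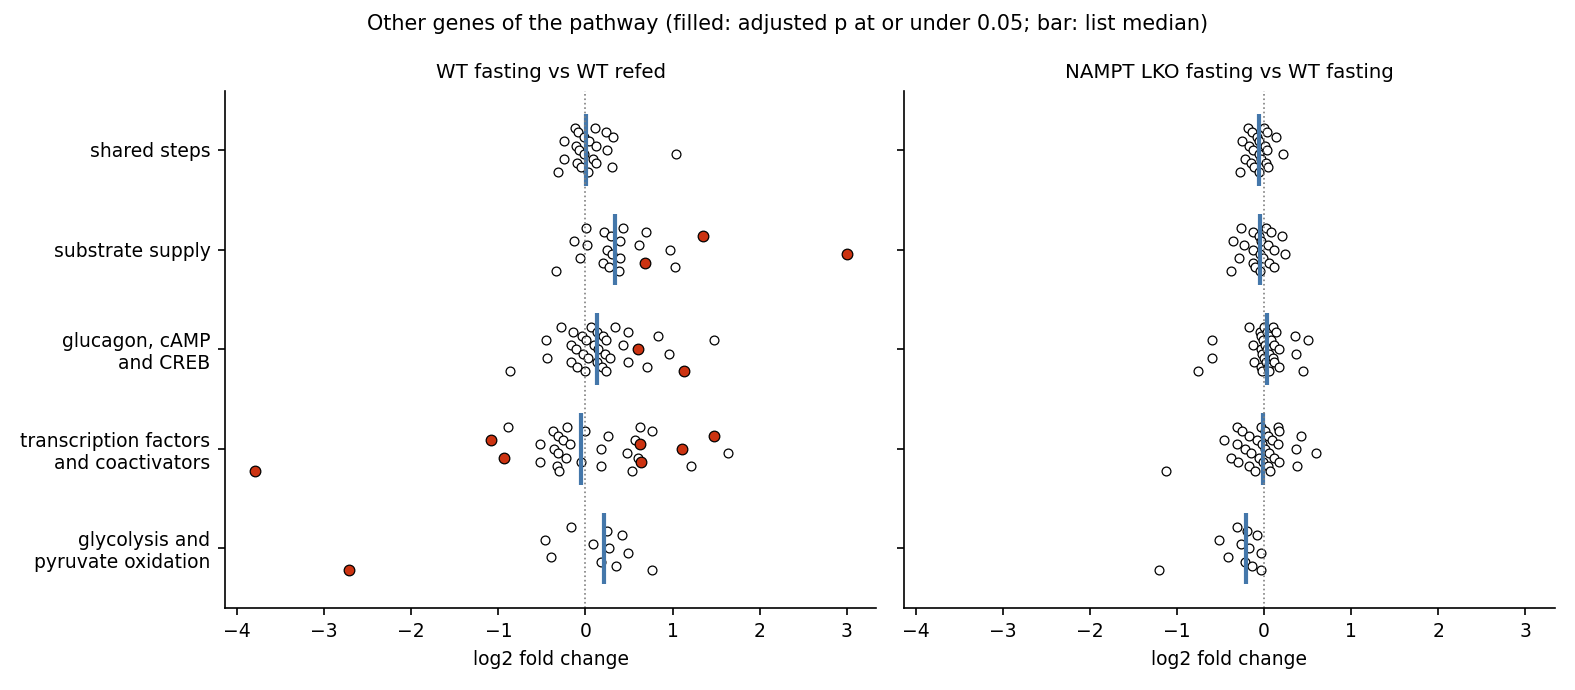
Log2 fold changes of the 124 tested genes in 5 lists (rows), 1 point per gene, for WT fasting against WT refed (left) and NAMPT LKO fasting against WT fasting (right). Filled points passed edgeR QL and bars mark list medians: 13 points are filled on the left, with Onecut1 at -3.80 and Pdk4 at 3.00 the most extreme, and 0 on the right.

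Between the fasted genotypes 0 of the 124 genes passed edgeR QL, 7 (5.65%, against 6.03% of all genes) had p under 0.05 before adjustment, and 0 passed with DESeq2, edgeR's exact test or limma's voomWithQualityWeights. The medians of 4 of the lists lay between -0.06 and 0.032. The fifth list holds glycolytic enzymes with a regulatory protein and a subunit of pyruvate dehydrogenase. All 12 of its genes had log2 fold changes below 0, with a median of -0.21, where 50.1% of all genes were above 0. That median was -0.072 without WT fasting mouse 3 and -0.375 without WT fasting mouse 1. Between WT fasting and WT refed livers the list had 8 of 12 genes above 0 and a median of 0.21, which was -0.10 without WT fasting mouse 3. Hk2, a hexokinase, had the list's lowest p between the fasted genotypes (log2 fold change -1.20, edgeR QL adjusted p = 0.798). It was at 0.929 to 1.23 CPM in NAMPT LKO fasting and 1.37 to 4.98 CPM in WT fasting livers. Its log2 fold change ranged from -1.51 to -0.31 with 1 library left out. The genes of lowest p in the other lists were Slc38a2 (-0.38), the repressor Bcl6 (-1.13), the adenylyl cyclase Adcy4 (-0.76) and the triose isomerase Tpi1 (-0.19), with edgeR QL adjusted p of 0.761 to 0.837. The log2 fold change of Adcy4 ranged from -1.02 to -0.24 with 1 library left out. Adcy4 spread over 4.00 to 10.7 CPM in WT fasting livers, against 3.01 to 5.01 CPM in NAMPT LKO fasting livers. NAMPT LKO fasting and WT fasting livers did not overlap for Slc38a2 (97.9 to 125.0 against 125.8 to 158 CPM), Bcl6 (9.97 to 19.9 against 27.2 to 36.2 CPM), Hk2 and Tpi1 (289 to 336 against 342 to 370.5 CPM), but these were chosen for their low p, and 4.07% of all genes did not overlap. Against WT refed livers, NAMPT LKO fasting livers had 18 of the 124 genes (14.5%) pass as higher and 2 (1.61%) as lower, 1 of them Onecut1, against 4.65% and 6.58% of all genes. The shared steps gave 2 of the 18, the aspartate aminotransferase Got1 (log2 fold change 1.18, edgeR QL adjusted p = 0.0354) and the aspartate-glutamate carrier Slc25a12 (0.54, adjusted p = 0.0487), named after their values were seen. Of these 20 calls, 6 remained without WT refed mouse 1, 2 without WT refed mouse 2, 10 without NAMPT LKO fasting mouse 2 and 13 without WT fasting mouse 2.

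Promoter windows from RefSeq (250 bases before to 50 after a transcription start, GRCm38.p6) were found for 9 of the 10 genes, 13 windows in all, with 3 for Slc37a4 and 2 each for Creb3l3 and Pcx. Both strands were searched for 5 motifs. The core of the cAMP response element, TGACG, was in 5 of the 13 windows, against 20.8% of all 32851 windows: 1 each of Pck1 and Ppargc1a, printed above, 2 of Slc37a4, which overlap and share a match, and 1 of Creb3l3. The full element TGACGTCA was in 0 of the 13 (1.79% of all windows), as was the forkhead motif TGTTTAC (3.65%). The TATA box TATAAA was in 2 windows (13.6% of all), those of G6pc and of the third Slc37a4 start, at nearly the same distance from the start. The glucocorticoid receptor motif AGAACA was in 1 (19% of all), the second Creb3l3 start. The full element contains the core on both strands, and a match says only that these letters are in the window.

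**Figure D5:**
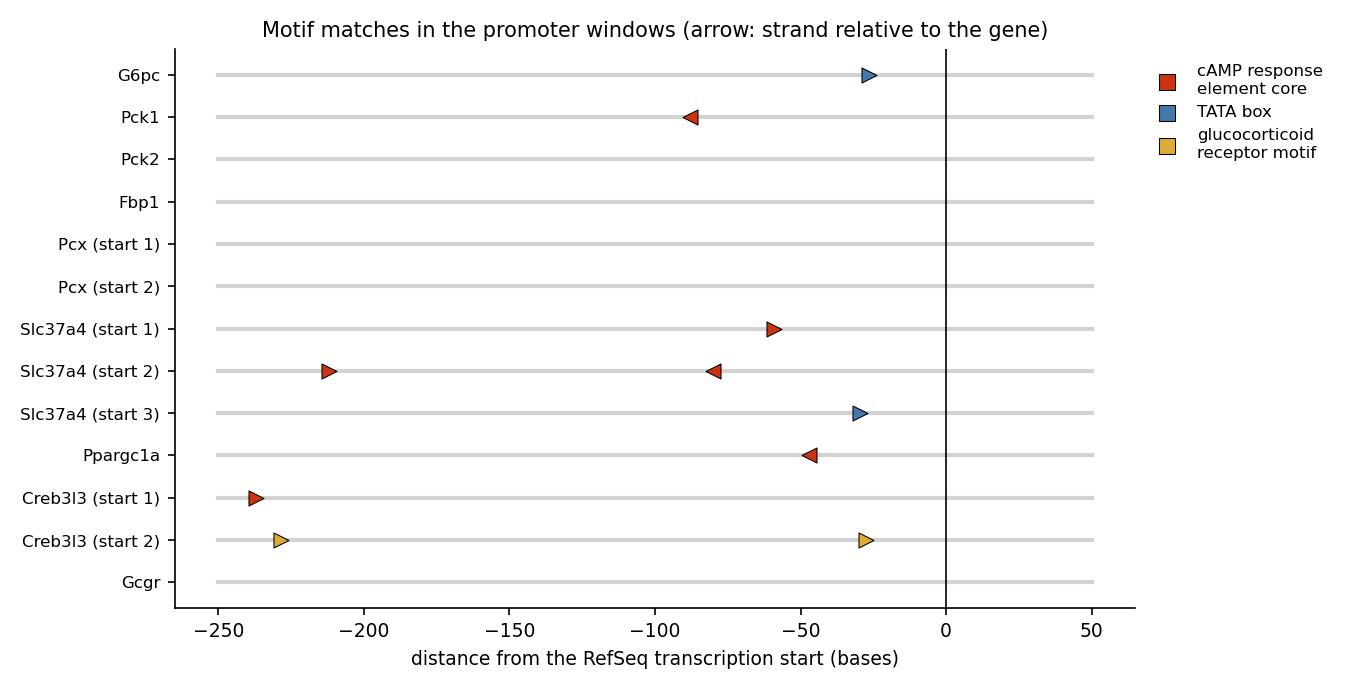
Matches of 3 motifs (coloured arrows, pointing right when on the strand of the gene) by distance in bases from each RefSeq start (horizontal axis, from 250 before to 50 after) in the 13 windows of 9 genes (rows). The cAMP response element core lies within 90 bases of the start in Pck1, Ppargc1a and 2 windows of Slc37a4, and the windows of Pck2, Fbp1, Pcx and Gcgr are empty.

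The genes whose level followed each of 4 members most closely over the 10 libraries were named by Pearson's r of log2 CPM among the 9106 genes that averaged 5 CPM or more. The 10 points share the 3 groups and the library scaling, so r is a description. They include NAMPT LKO fasting mouse 5, which had the lowest Slc37a4 and the highest Ppargc1a level of the 10 libraries. Values of r without that mouse were not computed. For G6pc these were Rnf125 (r = 0.977), Ephx2 (0.970) and March6 (0.967), of which Rnf125 also went from a mean of 17.7 CPM in WT refed to 81.1 CPM in WT fasting and 97.4 CPM in NAMPT LKO fasting livers. For Pck1 they were Mfsd2a (0.986), Lrp5 (0.977) and Angptl4 (0.976), and Angptl4, which encodes an inhibitor of lipoprotein lipase, averaged 47.8, 249 and 242 CPM in the same order of groups. For Ppargc1a they were Lrba (0.955), Sorbs3 (0.938) and Scpep1 (0.936), whose means were highest in NAMPT LKO fasting livers. For Slc37a4 they were Med26 (0.954), F12 (0.949) and Abcc6 (0.947), whose means were highest in WT fasting livers.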

How the data were processed

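RNA of 10 mouse livers was sequenced after oligo-dT selection. By the submitters' processing notes, the authors aligned reads with STAR 2.5.1a to GRCm38 and counted them per Ensembl gene with featureCounts 1.4.6-p5, whereas the study's methods name other versions of both tools. Whether counting used strand is not given in the sources used here. The authors deposited counts, CPM (each count divided by the library total) and RPKM (CPM divided by exonic length). The deposited CPM and RPKM values were recomputed from the counts and matched them. The paper describes a shorter fast and randomly fed controls, and the times given here are those of the labels.

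Groups were taken from the sample titles. The 14 replicate pairs within groups held no identical columns and differed by more than sampling noise (chi-square per degree of freedom of 32.7 or more). Genes over 1 CPM in at least 1 library were kept, without rRNA genes, and 13444 were tested on the deposited counts with edgeR 4.0.16 (R 4.3.3, TMM scaling, quasi-likelihood test, all 10 libraries in one fit, group as the only term) and Benjamini-Hochberg adjustment, with a threshold of 0.05. Intervals are 95% intervals from the quasi-likelihood standard error. The test was checked on simulated data. Log2 ratios were compared by exact permutation tests (scipy 1.17.1). Alternatives were limma 3.58.1 (voomWithQualityWeights), DESeq2 1.42.0, edgeR's exact test, other scalings and filters, fits without the third group, a fit with replicate number as a block, and fits that leave out 1 library each.

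The genes and lists were chosen with earlier results of these data known. Named genes are the 10 members, Nampt, up to 3 genes per list and direction with the lowest p among those that passed between WT fasting and WT refed livers, the gene of lowest p per list between the fasted genotypes, and the 3 genes of highest r for each of 4 members. Of the 133 listed genes, 8 did not pass the filter and 1 had no row. The result of 1 list gene is not reported here. No member shared exonic bases with another gene listed in the count tables. Pck2 also overlapped Gm10876, and Ppargc1a overlapped Gm42613, Gm42614, Gm42615 and Gm43605. These annotated genes had no row in the count tables, so bases shared with their exons were not computed. Motifs were searched in RefSeq promoter windows of GRCm38.p6, and no window was used here for Crtc2. Depth (30603080 to 43434139 counts per library) gave Pck2, the scarcest member, 81 to 196 counts.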

Additional observations from a re-analysis of the deposited data

Results flagged for a closer look

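Among the 5 NAMPT LKO fasting livers, 14 measures (the 10 genes, Nampt, the log2 ratios of Pck1 to Pck2 and of G6pc to Slc37a4, and the share of mitochondrial counts) were compared with Dixon's critical value for 5 samples, and 3 exceeded it, where 0.7 would by chance. All 3 lay in NAMPT LKO fasting mouse 5. Its Slc37a4 level was 97.2 CPM against 133 to 144 CPM in the other 4 livers of the group. Its Creb3l3 level was 262 CPM against 339 to 365 CPM. Counts on the mitochondrial genome made up 21.1% of its total, against 10.4% to 12.9%.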

How the results depend on the processing

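The direction of all 10 genes between WT fasting and WT refed livers held under the 18 alternatives run for each. Their number that passed was 2 in the report, 8 with voomWithQualityWeights, 4 with DESeq2, 4 with only the groups compared, 4 at an unadjusted p under 0.05, and 1 to 5 with 1 library left out (1 without WT refed mouse 1 or 2, 5 without NAMPT LKO fasting mouse 5). In the same settings the genes that passed numbered 946, 3331, 1646, 1649, 3002 and 107 to 2231 (538 without WT fasting mouse 1, 466 without mouse 2), and the list genes 13, 41, 26, 21, 40 and 2 to 26 (4 without WT refed mouse 1). Between the fasted genotypes no member passed under any of the alternatives, and 7 list genes had an unadjusted p under 0.05. There the 1 gene that passed became 24 with DESeq2, 24 with edgeR's exact test, 2 with library size alone, 17 without the filter, 3 with filterByExpr, 811 at an unadjusted p under 0.05, and 1 to 2 with 1 library left out. The estimate of G6pc ranged from -0.55 to 0.46 with 1 library left out (reversed without WT fasting mouse 1) and that of Fbp1 from -0.060 to 0.0024 (reversed without NAMPT LKO fasting mouse 4). Between NAMPT LKO fasting and WT refed livers the members that passed numbered 3, then 6 with voomWithQualityWeights, 5 with DESeq2, 5 at an unadjusted p under 0.05, and 1 to 6 with 1 library left out. The genes numbered 1510, then 4281 with voomWithQualityWeights, 3507 at an unadjusted p under 0.05, and 227 to 2835 with 1 left out, and the list genes 20, then 52, 34 with DESeq2, 46 at an unadjusted p under 0.05, and 2 to 33. Gcgr in that comparison reversed to -0.053 with library size alone, -0.0037 without the filter, and ranged from -0.061 to 0.14 with 1 library left out, below 0 without WT refed mouse 1 or NAMPT LKO fasting mouse 1 or 3. The cause of these shifts was not tested. The log2 ratio of Pck1 to Pck2 kept its direction in every setting run, and between WT fasting and WT refed livers its exact test could not pass in any of them.

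Replicate numbers 1 to 3 are shared by the fasted groups, but the correlations of same-numbered libraries were 0.076, 0.162 and 0.097, so they were not taken as pairs, although each of the 6 libraries correlated best with its own number. With the replicate block over these 6 libraries, 0 genes passed and 875 had an unadjusted p under 0.05, against 0 and 822 for the same libraries without the block, and Creb3l3 turned to 0.0081 and 0.0078. Nampt had adjusted p of 0.106 and 0.269 there by edgeR's quasi-likelihood test.

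With 2 refed mice, G6pc and Ppargc1a each lost a call against WT refed livers when either mouse was left out. Depth limits Pck2 most.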
